A study of Mus musculus with 18 samples.

Results

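Hedgehog signalling was followed through 9 genes chosen by symbol from the 26301 in the deposited count table of mouse astrocytes cultured with or without neurons. The genes are Ptch1, Smo, Gli1, Gli2, Gli3, Hhip, Boc, Cdon and Sufu, and all of them passed the filter on low counts. A further co-receptor, Gas1, was left out of the 9 because 8 libraries held no read of it.

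Hedgehog ligands are secreted proteins that bind the receptor Patched on a responding cell. Unbound Patched keeps the membrane protein Smoothened inactive, and ligand binding releases it, after which GLI transcription factors activate target genes. Ptch1, Gli1 and Hhip are themselves targets in many mouse tissues, so their transcript levels are often used as a readout of the pathway. In the brain, Sonic hedgehog is made by neurons and astrocytes are among the cells that respond to it.

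The title of the series names transcripts that astrocytes change on contact with neurons as its question. Astrocytes from the cortex of newborn mice (no strain is named) were grown for about 2 weeks in medium with serum and then moved to N2 medium. Hippocampal neurons from newborn TdTomato-positive mice, which carry a red fluorescent protein, were then plated onto the co-cultures, while the cultures alone received none. At day 2, 4 or 7 the cells were detached and passed through a cell sorter that read their red fluorescence, with the cultures alone used to set the gate for cells without it, and ribosomal RNA was removed before sequencing. The groups were therefore astrocytes with neurons and astrocytes alone at each of 3 days, with 3 libraries per group and 18 in all. In the labels each replicate number carries 1 date, which gives 9 pairs of a co-culture and a culture alone from the same date and day. Whether replicates came from separate animals is not stated, and p-values refer to the spread among cultures, which may be technical.

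Total counts ran from 13950111 to 32623556 in 16 libraries, and 2 stood apart. Replicate 1 of the day 7 co-culture held 8966485 reads, of which 40.5% fell on the mitochondrial gene mt-Rnr2. Replicate 1 of astrocytes alone at day 2 held 3242459 reads, of which 92.5% fell on 1 gene, so that 3 reads there equal 20.2 CPM, the reads of a gene scaled to the size of its library. Values below are CPM scaled by the TMM method. Fits use all 18 libraries unless stated, and some results are also given without these 2 libraries. Lists of 3 values are in the order of replicates 1, 2 and 3. The first value alone at day 2 and the first with neurons at day 7 therefore come from these 2 libraries. Among the other 16, a read was found for a median of 94.2% of tested genes in 8 co-culture libraries and of 98.5% in 8 libraries alone. Of 10 astrocyte markers, 9 in co-culture and 10 alone had a read in each of those libraries, with summed levels of 1186 to 5618 CPM in co-culture and 914 to 4751 CPM alone. Summed neuronal markers were at 189 to 371 CPM in co-culture and 157 to 436 CPM alone, ranges that overlap. The part of other cell types in any value below was not tested, and in these bulk samples fewer cells of a type and less RNA per cell cannot be told apart.

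None of the 9 genes passed the test for a change with co-culture. The quasi-likelihood F test of edgeR called 0 of 9 members at an adjusted p under 0.05 at day 2, day 4, day 7 and in the average of the 3 days, and it also called 0.0% of the 16539 genes tested in each of these comparisons. DESeq2 also called 0 of 9 members, and of all genes 22 at day 2, 5 at day 7 and 0 in the other comparisons of co-culture with alone. In the edgeR test 0 of 9 members had an unadjusted p under 0.05, where the share of all genes was 2.35% at day 2, 0.369% at day 4, 9.37% at day 7 and 4.17% in the average. The precision differed by gene. For Boc the 95% interval of the average fold, co-culture over alone, ran from 0.879 to 1.38, and for Smo from 0.879 to 1.41, whereas for Gli1 it ran from 0.354 to 1.90. A 2-fold change in either direction lies outside these intervals for Boc and Smo, and a fall to 0.5 lies inside that for Gli1.

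The sequence before the start site is shown for Ptch1 and Gli2, the pair of members with the highest Pearson correlation across libraries. The RefSeq window for Ptch1 (GRCm38.p6, chr13:63565736-63565985, minus strand, 250 bases) lies in an intron of Ptch1 in the GENCODE M21 annotation, and that for Gli2 (chr1:119053620-119053869, minus strand) overlaps no annotated feature. Each is written 5′ to 3′ along its gene, ending at the base before the start site. GLI factors bind the consensus GACCACCCA. No letter is in capitals because neither window holds the consensus on either strand, also with 1 mismatch allowed.
Ptch1: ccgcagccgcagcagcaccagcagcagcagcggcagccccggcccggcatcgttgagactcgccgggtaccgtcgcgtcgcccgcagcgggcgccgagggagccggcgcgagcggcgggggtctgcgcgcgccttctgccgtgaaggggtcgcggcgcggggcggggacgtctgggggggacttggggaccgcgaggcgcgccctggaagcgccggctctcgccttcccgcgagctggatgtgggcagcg
Gli2: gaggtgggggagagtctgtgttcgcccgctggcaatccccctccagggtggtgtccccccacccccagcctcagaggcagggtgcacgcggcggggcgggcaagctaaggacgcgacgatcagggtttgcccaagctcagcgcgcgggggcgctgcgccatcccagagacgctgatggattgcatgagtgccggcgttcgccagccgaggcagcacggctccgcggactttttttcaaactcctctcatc
Windows were found for 7 of the 9 members (all but Gli1 and Boc), and 0 of the 7 held the consensus with at most 1 mismatch. Of the 32851 windows of the same length in the table, 0.225% held it in full and 5.79% with at most 1 mismatch. These letters describe the windows shown and say nothing of sites elsewhere. G and C made up 78.4% of the Ptch1 window and 67.2% of the Gli2 window, against a median of 52.4% over all windows.

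Ptch1, the receptor that holds Smoothened inactive, was read at 71.0 to 265 CPM in the 16 libraries. At day 2 it had 71.0, 108 and 265 CPM with neurons and 26.9, 133 and 186 CPM alone in replicates 1, 2 and 3, where the 26.9 CPM come from 4 reads of the smallest library. At day 4 it had 110, 115 and 113 CPM with neurons and 95.03, 145 and 125 CPM alone. At day 7 it had 102, 120 and 123 CPM with neurons and 114, 151 and 148 CPM alone. The co-cultures of day 4 were almost level with each other, those of day 2 held both the lowest and the highest of the 16 values, and the cultures overlapped at day 2, day 4 and day 7. Ptch1 was lower with neurons in all 3 pairs of day 7, 1 of them with the library rich in mt-Rnr2, a pattern that 15.8% of tested genes shared, and in 5 of the 7 pairs without the libraries that stand apart. The fitted average was −0.04 ± 0.27 on the log2 scale (SE), and −0.18 ± 0.18 without those libraries and with the replicate number as a block.

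The mean of Ptch1 also differed by date, with ranges that overlapped. Dates differed over all tested genes as well, and in the summed astrocyte markers given above. In deviations from group means, 18 of 18 libraries were closest to those of their own replicate number. Of the 983 tested genes at the level of Ptch1 (within 0.5 log2 CPM), 68.4% had a smaller SD across the 16 libraries. Within replicate numbers the share was 62.3%. The mean of Ptch1 was 97.6 ± 19.5 CPM in replicate 1 (SD, n = 4), 129 ± 17.2 CPM in replicate 2 (n = 6) and 160 ± 57.7 CPM in replicate 3 (n = 6). Replicate 3 includes the highest value, 265 CPM at day 2 with neurons, beside 186 CPM alone on the same date and day.

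Smo, which encodes Smoothened, had the smallest SD across libraries of the members after Boc. At day 2 it had 116, 128 and 120 CPM with neurons and 175, 97.2 and 95.8 CPM alone, where the 175 CPM belong to the smallest library. At day 4 it had 108, 93.4 and 123 CPM with neurons and 84.7, 115 and 78.0 CPM alone, and at day 7 it had 122, 101 and 92.3 CPM with neurons and 85.8, 97.4 and 93.7 CPM alone. Without the libraries that stand apart, both libraries alone at day 2 lay below all 3 co-cultures of that day. This is a separation of 2 against 3 libraries, and the share of tested genes so separated was not counted. In the same libraries the cultures overlapped at day 4 and day 7, and Smo was higher with neurons in 5 of 7 pairs. The fitted average was 0.15 ± 0.16 (log2, SE), beside a median of 0.02 over all genes. With upper-quartile scaling it was −0.0062, and this scaling moved the median of all genes to −0.085, so that Smo stayed above the median in both. Across the 16 libraries its highest level was 1.65 times its lowest, and 7.74% of the 1279 tested genes of like level (within 0.5 log2 CPM) had a smaller SD. Its median pair difference was not small in this sense, as 78.0% of those genes had a smaller one.

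**Figure D1:**
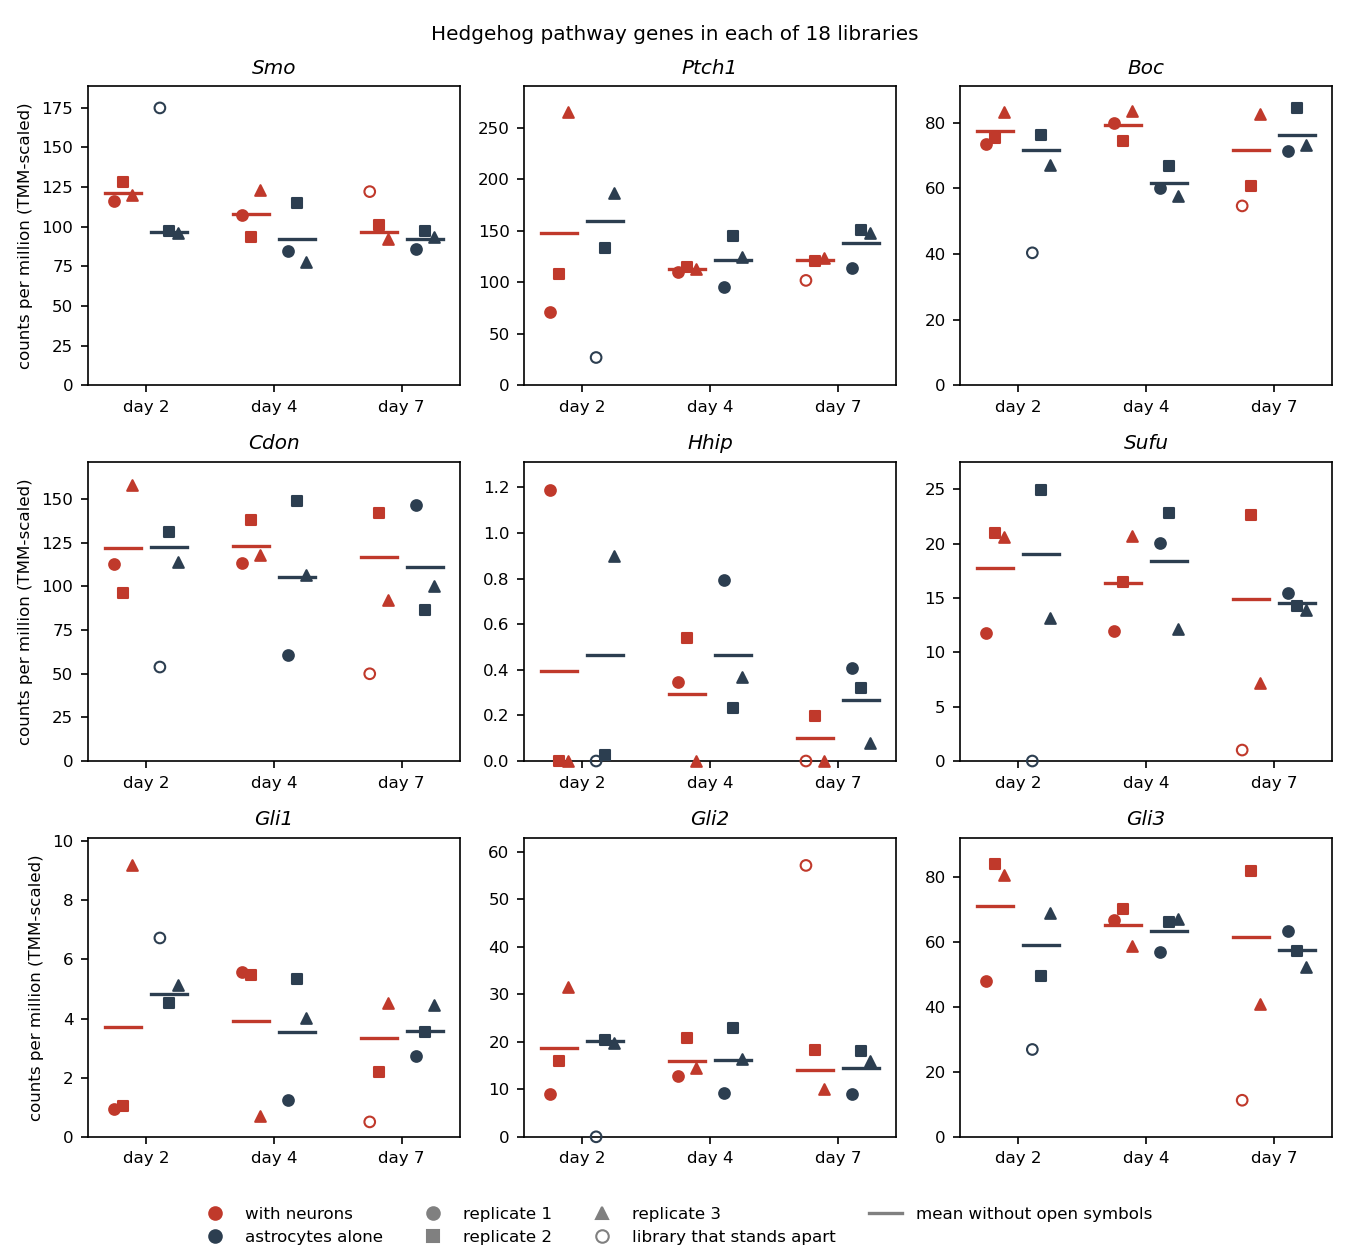
TMM-scaled CPM (y axis, linear, from 0, own scale per panel) of the 9 genes at day 2, 4 and 7 (x axis), with co-cultures in red to the left of astrocytes alone in dark blue. Each symbol is 1 library, open symbols are the 2 libraries that stand apart and bars are means without them. Co-cultures of Boc lie at 74.4 to 83.6 CPM at day 4, above the 57.7 to 66.8 CPM alone, while the open symbol of Gli2 at day 7 lies at 57.2 CPM, far above all others.

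Boc and Cdon encode co-receptors that bind Hedgehog ligands together with Patched. Boc had 80.0, 74.4 and 83.6 CPM with neurons at day 4 and 60.1, 66.8 and 57.7 CPM alone. Every co-culture of day 4 thus lay above every culture alone, the only such separation among the 9 members on any day with all libraries, and 2.05% of all tested genes were separated in this direction on that day. The fitted difference was 0.37 ± 0.27 (log2, SE), with an unadjusted p of 0.188 by edgeR and an adjusted p of 1.00.

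On the other days Boc did not repeat this. At day 2 it had 73.4, 75.4 and 83.3 CPM with neurons and 40.3, 76.4 and 67.1 CPM alone, where the 40.3 CPM belong to the smallest library. At day 7 it had 54.6, 60.7 and 82.7 CPM with neurons and 71.2, 84.6 and 73.1 CPM alone. The cultures overlapped on both days, and at day 7 Boc was lower with neurons in 2 of 3 pairs. The difference of the co-culture effect, day 7 minus day 4, was −0.58 ± 0.38 (log2, SE) with an unadjusted p of 0.146, the smallest p of any member in the 13 comparisons, and an adjusted p of 1.00. Across the 16 libraries Boc had the smallest SD of the members: its highest level was 1.47 times its lowest, and 2.68% of the 1718 tested genes of like level had a smaller SD, whereas 74.2% had a smaller median pair difference.

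Cdon had 113, 95.9 and 158 CPM with neurons at day 2 and 53.8, 131 and 114 CPM alone, where the 53.8 CPM are 8 reads of the smallest library. For day 4 the values were 113, 138 and 118 CPM with neurons and 60.6, 149 and 107 CPM alone, and at day 7 it had 49.9, 142 and 92.0 CPM with neurons and 146, 86.3 and 100 CPM alone. The 49.9 CPM belong to the library rich in mt-Rnr2. The cultures overlapped on every day, and Cdon was higher with neurons in 4 of the 7 pairs without the libraries that stand apart. The median size of its pair difference was 0.45 on the log2 scale, in either direction, and 93.5% of the 1116 tested genes of like level had a smaller one, while 53.9% had a smaller SD across libraries. The fitted average was 0.07 ± 0.23 (log2, SE), and −0.025 with upper-quartile scaling, in both above the median of all genes (0.02 and −0.085).

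Hhip encodes a membrane protein that binds and sequesters Hedgehog ligands, and it is a target gene of the pathway. It was close to the limit of detection, with 0 to 43 reads per library. Over 8 libraries each, 74 reads were counted with neurons and 82 alone, and at least 1 read was found in 4 of 8 co-cultures and in 8 of 8 cultures alone. The co-cultures had 1.19, 0 and 0 CPM at day 2, 0.347, 0.538 and 0 CPM at day 4, and 0, 0.198 and 0 CPM at day 7. The cultures alone had 0, 0.0281 and 0.899 CPM at day 2, 0.794, 0.233 and 0.367 CPM at day 4, and 0.407, 0.321 and 0.0773 CPM at day 7. Hhip was thus read in fewer co-cultures, while the highest value of all came from 1 co-culture, day 2 of replicate 1, with 43 of the 74 reads. Without the highest library of each kind of culture, the sums were 31 reads with neurons and 56 reads alone.

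Hhip was lower with neurons in 6 of the 7 pairs, the only member to have 1 direction in at least 6 of them, where 8.5% of all tested genes were lower in at least 6. No member was higher in at least 6, as 7.64% of all tested genes were. Among the 1291 tested genes of like level the share was 15.7%, and co-cultures held fewer detected genes in general (a median of 94.2% with neurons and 98.5% alone). Some of the pairs in which Hhip was lower rest on very few reads. At day 2 in replicate 2 it had 0 reads with neurons and 1 alone, and at day 7 in replicate 3 it had 0 and 3. At day 7 in replicate 2 it had 8 reads with neurons and 6 alone, and was lower only after scaling. The unadjusted p of Hhip for the average was 0.461 by edgeR. No fold is read from its fit, since several libraries lie at or under 3 reads and the fitted value then depends on the prior count.

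Sufu encodes a protein that holds GLI factors in the cytoplasm and restrains the pathway. At day 2 it had 11.8, 21.0 and 20.6 CPM with neurons and 0, 25.0 and 13.1 CPM alone, where the 0 belongs to the smallest library, in which 3 reads are 20.2 CPM. Sufu at day 4 had 11.99, 16.5 and 20.7 CPM with neurons and 20.1, 22.8 and 12.1 CPM alone. At day 7 it had 1.01, 22.6 and 7.14 CPM with neurons and 15.5, 14.3 and 13.9 CPM alone, where the 1.01 CPM are 6 reads of the library rich in mt-Rnr2. At day 7 the SD was 11.1 CPM with neurons and 0.822 CPM alone (n = 3 each), and the co-cultures lay on both sides of the cultures alone. Without the library rich in mt-Rnr2 the SD with neurons was 10.9 CPM (n = 2). The median size of its pair difference, 0.66 on the log2 scale, exceeded that of 95.6% of the 2385 tested genes of like level, while 54.7% had a smaller SD across libraries. Sufu was higher with neurons in 3 of 7 pairs. The fitted average was −0.16 ± 0.42 (log2, SE).

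Gli1 encodes a transcriptional activator whose own transcription depends on the pathway in mouse tissues, and it was the most variable member after Hhip. It had 0.941, 1.03 and 9.20 CPM with neurons at day 2 and 6.72, 4.52 and 5.13 CPM alone, where the 6.72 CPM are 1 read of the smallest library. Gli1 at day 4 had 5.58, 5.47 and 0.716 CPM with neurons and 1.25, 5.35 and 4.03 CPM alone. At day 7 it had 0.504, 2.18 and 4.51 CPM with neurons and 2.73, 3.53 and 4.46 CPM alone, where the 0.504 CPM are 3 reads of the library rich in mt-Rnr2.

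The 4 lowest Gli1 values of the 16 libraries were 3 co-cultures and 1 culture alone, and the highest was a co-culture, 12.9 times the lowest. The 3 low co-cultures, from the lowest up, held a read for 85.4%, 92.7% and 88.3% of tested genes, the fewest of the 16 libraries. The low culture alone held a read for 98.4% and the highest co-culture for 95.4%. The part of detection in the Gli1 values was not tested. The pairs pointed in both directions: Gli1 was higher with neurons in 4 of 7 pairs, and the log2 ratio of a pair ran from −2.37 to 2.09. These libraries held 12 to 232 reads of Gli1, and of the 1346 tested genes of like level 57.1% had a smaller SD, 65.1% a smaller SD within replicate numbers and 79.4% a smaller median pair difference. The fitted average was −0.29 ± 0.58 (log2, SE). In GENCODE M21, 6.55% of the exon bases of Gli1 overlap Arhgap9 and Gm47200 on the opposite strand, and reads there cannot be assigned without strand. Such overlaps cover 1.96% of Gli3 and 1.93% of Hhip exon bases and none of the other 6 members.

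Gli2, the main activator at the start of a response in the mouse embryo, had 9.08, 15.9 and 31.4 CPM with neurons at day 2 and 0, 20.4 and 19.8 CPM alone. At day 4 it had 12.8, 20.7 and 14.6 CPM with neurons and 9.23, 22.9 and 16.3 CPM alone, and at day 7 it had 57.2, 18.2 and 10.2 CPM with neurons and 9.12, 18.1 and 16.04 CPM alone. The 57.2 CPM come from the day 7 co-culture library rich in mt-Rnr2, and the 0 from the smallest library. The fitted difference at day 7 was 0.97 ± 0.65 (log2, SE) with all libraries, −0.08 ± 0.51 without those 2 libraries, and −0.35 ± 0.39 without them and with the replicate block. Like Ptch1, Gli2 differed between dates, at 10.1 ± 1.82 CPM in replicate 1 (SD, n = 4), 19.4 ± 2.46 CPM in replicate 2 (n = 6) and 18.1 ± 7.27 CPM in replicate 3 (n = 6). All 4 values of replicate 1 were below all values of replicate 2, and the share of tested genes so separated was not counted. Of the 2366 tested genes at the level of Gli2, 61.6% had a smaller SD across the 16 libraries. Within replicate numbers the share was 34.2%.

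Gli3 encodes the GLI factor that acts chiefly as a repressor when the pathway is off. It had 48.0, 84.1 and 80.7 CPM with neurons at day 2 and 26.9, 49.4 and 68.9 CPM alone. It was higher with neurons in all 3 pairs of day 2, as were 15.2% of tested genes, but the 26.9 CPM of 1 pair are 4 reads of the smallest library, which leaves 2 pairs without it, and 48.0 CPM with neurons lay below 49.4 and 68.9 CPM alone. Gli3 at day 4 had 66.9, 70.1 and 58.8 CPM with neurons and 57.0, 66.1 and 67.2 CPM alone. At day 7 it had 11.3, 81.8 and 41.0 CPM with neurons and 63.3, 57.3 and 52.3 CPM alone, where the 11.3 CPM belong to the library rich in mt-Rnr2. The cultures overlapped on all 3 days, and the co-cultures of day 7 were spread more widely than the cultures alone. The fitted average was 0.04 ± 0.27 (log2, SE), or −0.045 with upper-quartile scaling, in both above the median of all genes (0.02 and −0.085).

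**Figure D2:**
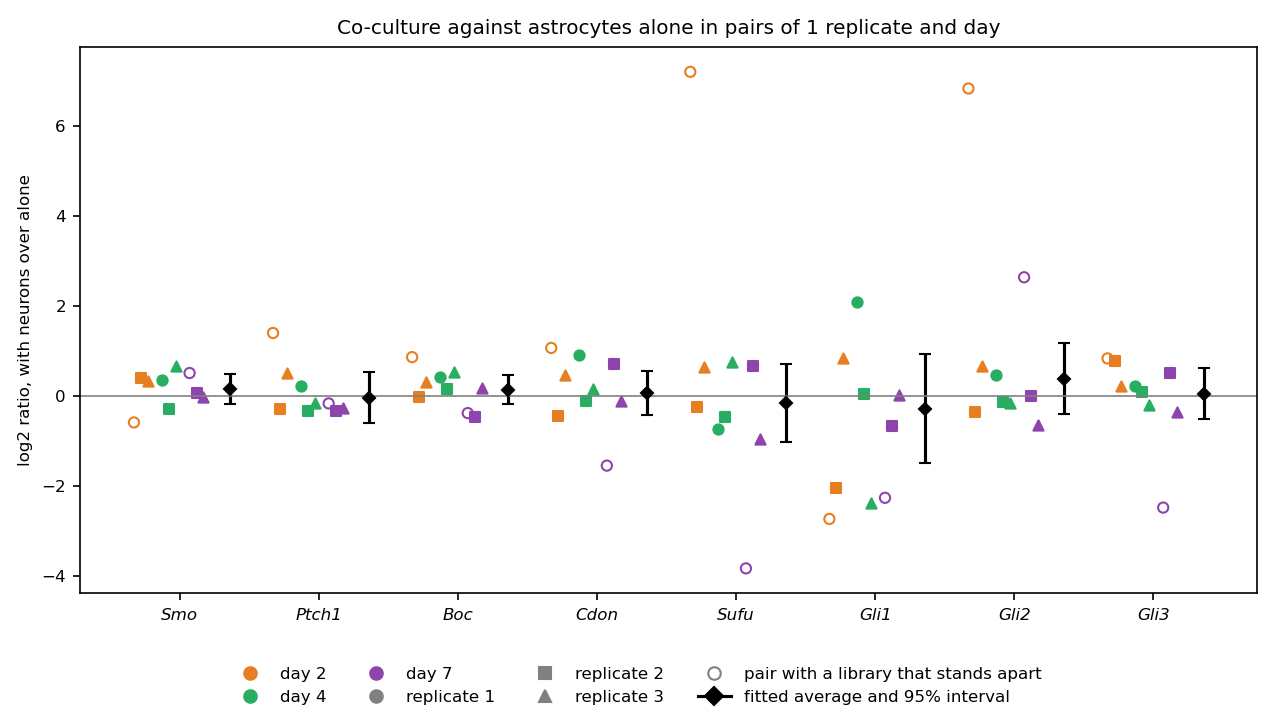
Log2 ratio of TMM-scaled CPM, co-culture over alone (y axis), in the 9 pairs of each of 8 genes (x axis), without Hhip for its few reads. Colours give the day, symbols the replicate, open symbols pairs with a library that stands apart, and diamonds the fitted average with its 95% interval. Filled symbols of Boc, Smo and Ptch1 stay between −0.48 and 0.66, those of Gli1 reach from −2.37 to 2.09, and every interval includes 0.

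The members as a group showed no shared direction that held across days. All 3 pairs had 1 direction for Gli3 at day 2 (higher with neurons), Boc at day 4 (higher, as were 10.7% of tested genes) and Ptch1 and Hhip at day 7 (lower), and at day 2 and day 7 1 of the pairs holds a library that stands apart. For Hhip at day 7 the reads were 0, 8 and 0 with neurons and 7, 6 and 3 alone, close to the limit of detection. The count of members was 0 of 9 for lower in all pairs at day 2 (8.48% of tested genes) and at day 4 (14.8%), and for higher in all pairs at day 7 (14.0%). Apart from Boc at day 4, no member had all co-cultures on 1 side of all cultures alone, where the shares of tested genes were 3.26% above and 2.27% below at day 2, 3.92% below at day 4, and 4.29% above and 5.58% below at day 7. Fitted values were higher with neurons for 7 of 9 members at day 2 (53.3% of all tested genes), 5 of 9 at day 4 (48.6%), 2 of 9 at day 7 (50.2%) and 5 of 9 in the average (52.6%). The 2 at day 7 were Smo and Gli2, and without the libraries that stand apart and with the replicate block it was 0 of 9 at day 7, against 47.8% of all tested genes. This count depended on the block, since without it Gli3 (0.052) and Cdon (0.035) were fitted higher at day 7 in the same 16 libraries. With all libraries, the median fitted value of the 9 was 0.18 at day 2, 0.04 at day 4 and −0.26 at day 7 (log2). The median over all genes was 0.04, −0.01 and 0.00.

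Time in culture was compared within each kind of culture, and no member passed the test. With neurons, 0 of 9 members and 0.0% of tested genes were called by edgeR between day 4 and day 2, day 7 and day 4, and day 7 and day 2, and the same counts held for astrocytes alone. The unadjusted p by edgeR was under 0.05 for 0 of 9 members in each of these. Among the 16539 tested genes it was so for 359, 1687 and 2181 with neurons, in the order given, and for 121, 28 and 183 alone. DESeq2 also called 0 of 9 members, and of all genes 5, 7 and 248 with neurons and 2, 0 and 3 alone. The smallest unadjusted p for time was that of Gli3 with neurons at day 7 against day 2, 0.174, with a log2 difference of −0.66 ± 0.47 (SE) and an adjusted p of 0.563. Without the 2 libraries that stand apart, among them the 11.3 CPM of replicate 1 at day 7, it was −0.20 ± 0.31. The difference of the co-culture effect between days was called for 0 of 9 members and 0.0% of tested genes in each of 3 comparisons.

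Among the 36 pairs of members, the 3 highest Pearson correlations from library to library were those among Ptch1, Gli2 and Gli1. After the mean of each replicate number was subtracted from log2 CPM, Ptch1 and Gli2 correlated at r = 0.78 (rho = 0.64) across the 16 libraries, Ptch1 and Gli1 at r = 0.70 (rho = 0.65), and Gli1 and Gli2 at r = 0.57 (rho = 0.79). Without the 2 libraries farthest from the median of the first gene named, r was 0.59 for Ptch1 and Gli2, 0.57 for Ptch1 and Gli1, and 0.59 for Gli1 and Gli2 (n = 14). The next highest was Gli2 with Gli3 at r = 0.56, or 0.05 without the 2 farthest libraries. Hhip, a target like Ptch1 and Gli1, correlated at r = −0.0047 with Ptch1 and 0.17 with Gli1, and Ptch1 and Smo correlated at r = 0.02. The 3 genes were picked out from these values, which are descriptions, because the points share libraries, scaling and dates. The co-culture of day 2, replicate 3, was highest in the 16 libraries for all of Ptch1 (265 CPM), Gli2 (31.4 CPM) and Gli1 (9.20 CPM), and the co-culture of day 2, replicate 1, was lowest for Ptch1 (71.0 CPM) and Gli2 (9.08 CPM) and low for Gli1 (0.941 CPM).

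**Figure D3:**
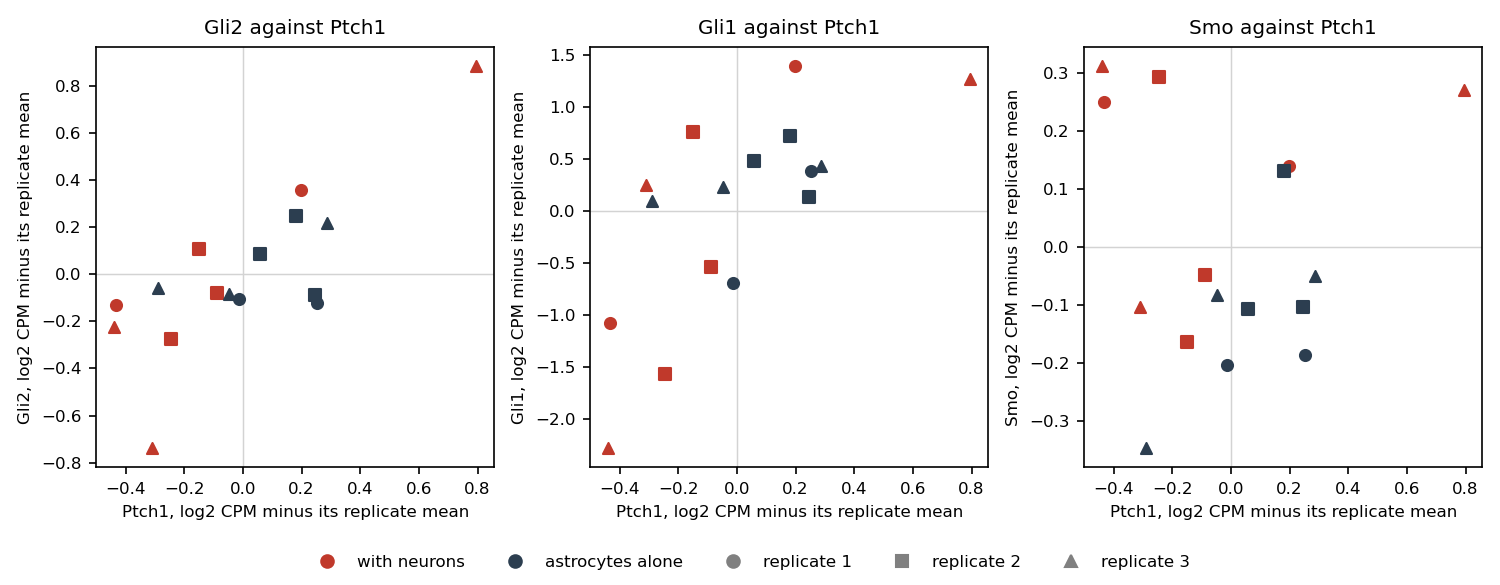
Log2 CPM minus the mean of the replicate number for Gli2, Gli1 and Smo (y axes) against Ptch1 (x axis), 1 symbol for each of 16 libraries, co-cultures in red and astrocytes alone in dark blue. Gli2 (r = 0.78) and Gli1 (r = 0.70) run along with Ptch1 and share the same upper right library, while Smo (r = 0.02) does not.

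Genes outside the pathway went with these members as closely. Among 11912 genes compared on the same centred values, Gli2 ranked 8 and Gli1 ranked 45 in likeness to Ptch1, while in likeness to Gli1, Ptch1 ranked 188 and Gli2 ranked 791. The genes most like Ptch1 were Usp48 (r = 0.85), Mat2a (r = 0.80) and Kif1b (r = 0.80), and after the 2 farthest libraries were left out these were 0.67, 0.65 and 0.84. Those most like Gli1 were Rps15a (r = 0.88), Pde3b (r = 0.86) and Hs3st3a1 (r = 0.85), and the same step gave 0.68, 0.66 and 0.65. All of these values but that of Kif1b thus fell. Because the genes were picked for the highest r in the same libraries, this step cannot tell how far a likeness rests on 2 libraries.

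Of a wider list of 54 genes of the pathway, 45 were tested and edgeR called 0 in every comparison of co-culture with alone, with an unadjusted p under 0.05 for 0 at day 2 (2.35% of all tested genes), 2 at day 4 (0.369%), 2 at day 7 (9.37%) and 1 in the average (4.17%). In the average, 18 were fitted higher and 27 lower with neurons, where 52.6% of all tested genes were higher, with a median of −0.03 (log2) beside 0.02 over all genes. At day 7 it was 12 higher and 33 lower, where 50.2% of all tested genes were higher, with a median of −0.38 beside 0.00, and the median was −0.09 without the 2 libraries that stand apart and with the replicate block. By role, fitted values in the average were higher for 2 of 5 ligand and release genes, 1 of 4 further receptors, 7 of 16 kinase and degradation genes, 6 of 11 cilium genes and 2 of 9 targets known from other tissues.

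Among the ligands, Shh, the Sonic hedgehog gene, was read in all 18 libraries. Its level differed by date: in the 16 libraries it was 13.01 to 42.3 CPM in replicate 1, 5.80 to 15.4 CPM in replicate 2 and 0.119 to 8.10 CPM in replicate 3. With neurons it had 42.3, 15.4 and 6.86 CPM at day 2, 20.2, 14.3 and 0.119 CPM at day 4 and 1.85, 5.80 and 5.69 CPM at day 7. Alone it had 47.1, 12.1 and 6.29 CPM at day 2, 26.5, 11.9 and 3.71 CPM at day 4 and 13.01, 7.17 and 8.10 CPM at day 7. Cultures without added neurons therefore held Shh transcript at levels that overlapped those with neurons, and Shh was higher with neurons in 3 of 7 pairs. Of the other ligands, Dhh had 438 reads over all libraries and Ihh 30 reads.

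Evc, which encodes a protein at the base of the cilium that relays the signal of Smoothened, had 57.7, 38.6 and 47.7 CPM with neurons at day 2 and 40.3, 34.8 and 33.8 CPM alone. At day 4 it had 41.4, 55.7 and 76.8 CPM with neurons and 36.1, 34.6 and 36.6 CPM alone, and at day 7 it had 28.6, 38.5 and 55.2 CPM with neurons and 30.2, 40.0 and 47.1 CPM alone. All co-cultures of day 4 lay above all cultures alone, and Evc was higher with neurons in 6 of 7 pairs, as were 7.64% of all tested genes. The fitted difference was 0.70 ± 0.32 at day 4 and 0.40 ± 0.19 in the average (log2, SE), with unadjusted p of 0.0448 and 0.0501 by edgeR and adjusted p of 1.00 and 0.982. Its partner in the same complex, Evc2, was at −0.13 ± 0.33 at day 4 and 0.07 ± 0.19 in the average.

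Also among the genes of the list with the smallest p were Foxc1 at day 7, a target in other mouse tissues, and Scube1 at day 2, a secreted relative of the proteins that aid ligand release. Foxc1 had 0.840, 10.7 and 4.63 CPM with neurons at day 7 and 15.3, 21.2 and 9.23 CPM alone, a log2 difference of −1.47 ± 0.68 (SE) with an adjusted p of 0.527 by edgeR. Without the 2 libraries that stand apart and with the replicate block it was −0.89 ± 0.49. Over the days, Foxc1 was higher with neurons in 3 of 7 pairs and lower in 4. Foxc1 also stands in the list of fibroblast and meningeal markers used here. The sum of that list at day 7 was 31.9, 165 and 113 CPM with neurons and 97.4, 109 and 149 CPM alone. The part of such cells in the Foxc1 values was not tested. Scube1 was close to the limit of detection, with 203 reads over all libraries and a read in 13 of them. In the 16 libraries it was at 0 to 1.16 CPM, with a median of 0.423 CPM. Its fitted log2 difference at day 2 was −2.34 ± 1.74 (SE), with an unadjusted p of 0.196 by edgeR. As for Hhip, no fold is read from this fit, because the reads are so few. Gas1 had 0 reads in 8 of the 16 libraries, among them all 6 of replicate 2, and 1198 to 3457 reads in the other 8. This on-or-off pattern was shared by 30 genes and by 0 of the 9 members. Without the 2 libraries that stand apart and with the replicate block, Gas1 was the 1 gene of the wider list called, at day 2 with an adjusted p of 0.000396 and at day 7 with 0.000488 by edgeR, in opposite directions. Whether its zeros are an absence of transcript or arose in counting was not tested, so this call is not read as a difference between cultures.

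**Figure D4:**
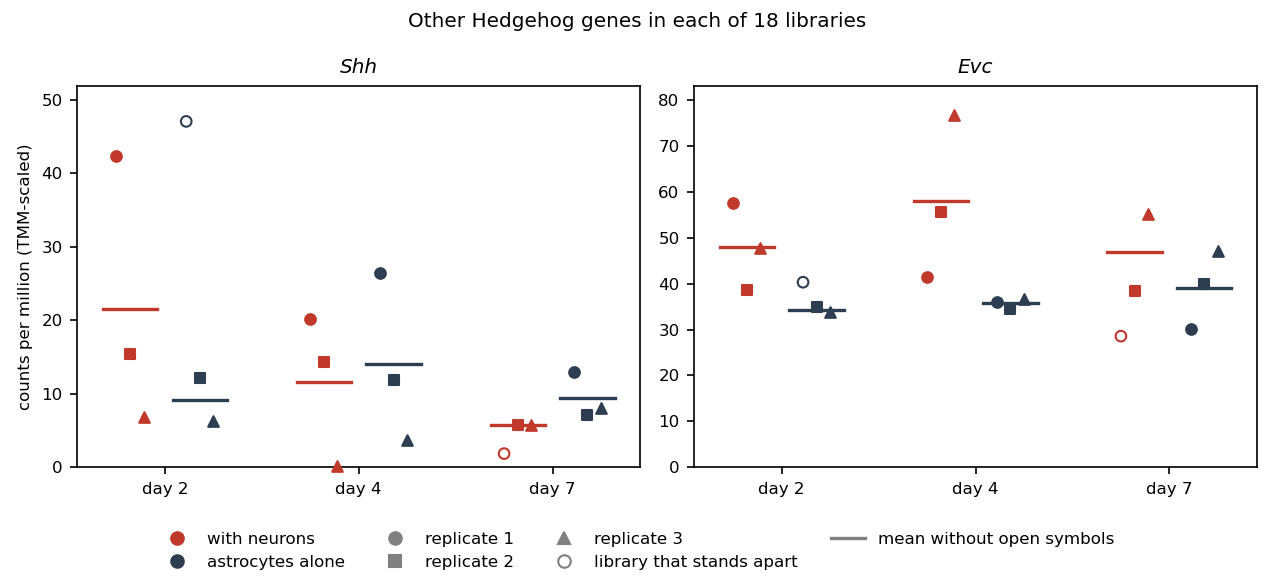
TMM-scaled CPM (y axis, linear, from 0, own scale per panel) of Shh and Evc at day 2, 4 and 7 (x axis), with co-cultures in red to the left of astrocytes alone in dark blue. Symbols, open symbols and bars are as in the plot of the 9 genes. Circles of Shh (replicate 1) lie above the others at day 2 and day 4, but not with neurons at day 7. The 3 co-cultures of Evc at day 4 (41.4, 55.7 and 76.8 CPM) lie above the cultures alone, as do those of 2.05% of tested genes.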

How the data were processed

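Per the labels' protocols, total RNA was extracted with TRIzol, ribosomal RNA was removed with Ribogone, SMARTer low-input kits gave cDNA and libraries, and 6 libraries were pooled per Illumina HiSeq run. The authors deposited read counts per gene with no normalization. Subread and featureCounts with mouse build mm9 are named, per the submitters' processing notes, without versions or a strand setting. Genes are Entrez IDs, and RefSeq (GRCm38.p6) gave symbols for 24191 of 26301. The table also held 17 columns of other values, which were not used.

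Counts were tested in R 4.3.3 with edgeR 4.0.16 and its quasi-likelihood F test (TMM, filterByExpr, 6 group means over 18 libraries, no block), which tested 16539 genes. P-values were adjusted by Benjamini-Hochberg over all genes, with a threshold of 0.05, in 13 comparisons. Log2 CPM used a prior count of 2, and 3 reads were taken as the floor. The procedure was tested on simulated data. Alternatives were the replicate block, 16 libraries without the 2 that stand apart, median-ratio and upper-quartile scaling, DESeq2 1.42.0, other filters, a robust fit, only the groups compared, and leave-outs.

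The labels give each replicate number 1 date. Within the 9 pairs of 1 number and day, deviations from the mean of a group correlated at 0.108 to 0.469, with a median of −0.107 between other numbers. The negative sign is partly built in, since the deviations of a group cancel out. The numbers were taken to pair the samples for the pair ratios and the replicate block. The main fit has no block, so its SEs, p-values and intervals do not use this pairing. No replicates of a group agreed within sampling noise. Promoter windows and sequences are RefSeq's, and the motif was searched in the 250 bases before the start on both strands. The rule for named genes took all members, per co-culture comparison the 2 genes of the wider list with the smallest p, Shh, Ihh, Dhh and Gas1, and the 3 genes most like Ptch1 and Gli1. One further gene that the rule named is not reported here. Members, lists and rules were chosen with earlier results of these data known.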

Additional observations from a re-analysis of the deposited data

How the results depend on the processing

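No member was called by any of the 31 alternatives, and 13 of 3700 tests of a member had an unadjusted p under 0.05, all with a replicate or library left out. The lowest was 0.00599 for Gli3 with neurons at day 7 against day 2, in the fit that lacks its second day 7 library (adjusted p = 0.111 by edgeR). The count of called genes of the whole table did change, from 0 to 22 at day 2 and 5 at day 7 with DESeq2, and to 16 and 18 with 16 libraries and the replicate block. These counts are for co-culture against alone. With neurons at day 7 against day 2, DESeq2 called 248 genes and the main edgeR fit 0.

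Of 36 log2 fold changes, co-culture over alone, 12 kept their sign under every alternative run and 24 did not, in 89 of 1096 values, although none of these was called. With the replicate block, which changed no call of a member, Gli2 was at 0.023 at day 4 and Gli3 at −0.0045 in the average. With 16 libraries and no block, values at day 2 were −0.12 for Ptch1, −0.11 for Gli2, −0.012 for Cdon and −0.11 for Sufu, those at day 7 were −0.075 for Gli2, 0.052 for Gli3 and 0.035 for Cdon, and Gli2 was at −0.070 in the average. With 16 libraries and the block they were −0.038 for Ptch1 at day 2, 0.057 for Gli2 at day 4, −0.021 for Smo and −0.35 for Gli2 at day 7, and −0.058 for Gli2 in the average. Smo at day 2 was −0.071 with median-ratio scaling, −0.17 with upper-quartile scaling and −0.072 with the filter of 10 CPM in 3 libraries. Upper-quartile scaling, which put the median of all genes at −0.15 at day 7 and −0.085 in the average, also gave −0.020 for Gli3 at day 4, −0.015 for Smo at day 7, and in the average −0.0062 for Smo, −0.045 for Gli3 and −0.025 for Cdon. The cause of these turns was not tested.

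Leaving out a replicate number or 1 library at a time also turned signs. Cdon ran from −0.10 to 0.17 in the average, −0.020 to 0.55 at day 2, −0.053 to 0.50 at day 4 and −0.86 to 0.25 at day 7. Gli1 ran from −2.38 to 0.062 at day 2 and −0.62 to 0.74 at day 4. Gli2 ran from −0.091 to 0.62 in the average, −0.41 to 0.49 at day 2, −0.29 to 0.26 at day 4 and −0.33 to 1.45 at day 7. Gli3 ran from −0.33 to 0.19 in the average, −0.058 to 0.15 at day 4 and −1.20 to 0.10 at day 7. Hhip, whose fitted values depend on the prior count and give no fold, ran from −2.93 to 0.82 in the average and −6.63 to 4.21 at day 2. Ptch1 ran from −0.28 to 0.11 in the average and −0.47 to 0.72 at day 2. Smo ran from −0.19 to 0.36 at day 2 and −0.051 to 0.27 at day 7. Sufu ran from −0.62 to 0.071 in the average, −0.11 to 0.79 at day 2, −0.60 to 0.078 at day 4 and −1.88 to 0.020 at day 7.

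The stricter filter left 7 members, and some fits of only the groups compared left 8, so that no value exists for the missing genes, and the average has no such fit. Depth limits Hhip, with 3 reads or fewer in many libraries, and every member in the smallest library.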
